A study of Mus musculus with 21 samples.

Results

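The miR-181 family was followed through development in the mouse cochlea and in the superior olivary complex (SOC), the group of auditory brainstem nuclei that receives input relayed from the cochlea. The 7 mature miRNAs described here (mmu-miR-181a-5p, mmu-miR-181b-5p, mmu-miR-181c-5p, mmu-miR-181d-5p, mmu-miR-181a-1-3p, mmu-miR-181a-2-3p and mmu-miR-181c-3p, written below without the species prefix) were taken by name from a table of 1647 mature mouse miRNAs, and 3 further rows named miR-181 (miR-181b-1-3p, miR-181b-2-3p and miR-181d-3p) are given only at the end of the closing section. All 7 had counts in every SOC library, and 4 to 6 of them had at least 1 count in each cochlea library.

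Small RNA was sequenced from 21 libraries of untreated wild-type (WT) mice at embryonic day 16 (E16), on the day of birth (P0) and at postnatal day 16 (P16), after the onset of hearing. Each time point is a different set of animals, and both organs came from mice of both sexes. The cochlea libraries (labelled inner ear sensory epithelium, from the strain C57BL/6JOlaHsd) numbered 2 (E16), 4 (P0) and 4 (P16), with RNA pooled from several mice, and held 124400 to 447419 counts. The SOC libraries (C57Bl6/J, tissue of several animals pooled per library) numbered 4 (E16), 4 (P0) and 3 (P16) and held 8309669 to 18053698 counts. The p-values below measure the spread between these libraries, each made from a pool. In the SOC that spread also includes differences between the library sets described below, which the main fits and exact tests leave out. RNA isolation and library kits differed between the organs, so a difference in level between cochlea and SOC cannot be told apart from a difference between kits, and the organs are compared only through their changes over time.

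A miRNA guides the silencing machinery to messenger RNAs mainly through its seed, bases 2 to 8 counted from the 5' end, so miRNAs with one seed are expected to share many targets. Each hairpin precursor can give a mature miRNA from either arm. The 5p arm is the usual guide strand of the miR-181 hairpins, and the 3p arm is usually the less abundant product. The family is best known for its abundance in the brain and in developing lymphocytes, where miR-181a tunes signalling of the T cell receptor.

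The 4 mature 5p members carry one seed, and no other entry among the 1679 mature mouse miRNAs of RefSeq (GRCm38.p6) carried it. They are shown because the members that behaved differently over time differ only outside the seed. The capitals mark bases 2 to 8.
miR-181a-5p: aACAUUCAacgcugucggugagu
miR-181b-5p: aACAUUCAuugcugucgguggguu
miR-181c-5p: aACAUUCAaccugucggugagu
miR-181d-5p: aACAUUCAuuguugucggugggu
Counted from the 5' end, miR-181b-5p differs from miR-181a-5p by A9U, C10U and A21G over their 23 shared positions and has 1 base more, while miR-181d-5p differs from miR-181b-5p by C12U. miR-181c-5p lacks 1 base of miR-181a-5p.

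The 3p arms distinguish the 2 precursors of miR-181a, whose 5p arms are identical. They are shown because their ratio in the SOC did not overlap between ages, with capitals again at bases 2 to 8.
miR-181a-1-3p: aCCAUCGAccguugauuguacc
miR-181a-2-3p: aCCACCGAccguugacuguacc
miR-181c-3p: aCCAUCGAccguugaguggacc
miR-181a-1-3p and miR-181c-3p share a seed, whereas miR-181a-2-3p differs from miR-181a-1-3p by U5C, inside the seed, and U16C. With so few differing bases between relatives, the division of reads among them depends on the mismatches the aligner allowed, and the counts of near-identical members are uncertain to that extent.

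The family is encoded by 3 pairs of neighbouring hairpins (coordinates of the mature 5p arms, GRCm38.p6). Mir181a-1 (chr1:137966468-137966490, + strand) and Mir181b-1 (chr1:137966650-137966673, + strand) lie 97 bases apart in an exon of the long noncoding RNA gene A430106G13Rik. Mir181a-2 (chr2:38852741-38852763, + strand) and Mir181b-2 (chr2:38853845-38853868, + strand) lie 1019 bases apart in an intron of Nr6a1, a nuclear receptor gene on the opposite strand. Mir181c (chr8:84178924-84178945, - strand) and Mir181d (chr8:84178759-84178781, - strand) lie 85 bases apart in an intron of Nanos3, a germ cell gene on the same strand. Since miR-181a-5p and miR-181b-5p each come from the pairs on both chromosome 1 and chromosome 2, their counts cannot be divided between these loci.

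Before the results, 2 features of the libraries have to be given. The SOC libraries fall into 3 sets, which the labels do not name, by the shares of 2 miRNAs outside the family: set A had over 10% of its counts on miR-99b-5p (E16 replicates 2 and 3, P0 replicates 2 and 3), set C had under 1% on miR-191-5p (P0 replicate 4, P16 replicates 2 and 3), and set B held the other 4 (E16 replicates 1 and 4, P0 replicate 1, P16 replicate 1). No set is spread evenly over age, since set A has no P16 library and set C no E16 library. A fit with the set as a covariate therefore links P16 to E16 only through P16 replicate 1 (set B) and through P0 replicate 4 (set C). Among markers fixed for other cell types, the 9 neuronal miRNAs summed to 47887 to 118912 CPM (counts scaled by the library total) in the SOC and 688 to 6374 in the cochlea. By age the SOC sums were 48022 to 103840 at E16, 62165 to 118912 at P0 and 47887 to 53880 at P16. The cochlear sums were 5637 to 6374 at E16, 688 to 1550 at P0 and 816 to 1949 at P16. The 3 hair cell miRNAs of the miR-183 cluster summed in the cochlea to 69631 to 71872 CPM at E16, 31182 to 39320 at P0 and 10805 to 40102 at P16, with 0 of 3 called in any comparison, and were also high in the SOC at E16 (97018 to 147946 CPM), falling to 592 to 2901 at P16. In the cochlea all 3 exceeded 3 counts in both E16 libraries, and 2 of the 3 did in every P0 and P16 library. The 7 epithelial miRNAs summed in the cochlea to 19611 to 29053 CPM at E16, 4848 to 8075 at P0 and 1618 to 6930 at P16 (3 of 7 called lower at P0 and at P16 than at E16), and in the SOC to 930 to 1855 at E16, 54.2 to 201 at P0 and 45.6 to 153 at P16. Of all miRNAs tested in the cochlea, 24.4% were called at P0 vs E16, 29.6% at P16 vs E16 (18.6% lower) and 10.5% at P16 vs P0. The 3 measured muscle miRNAs summed in the cochlea to 631 to 706 CPM at E16, 187 to 473 at P0 and 711 to 4487 at P16. In the SOC they summed to 96.9 to 276 CPM at E16, 9.65 to 28.2 at P0 and 10.2 to 20.0 at P16. The 6 measured blood and immune miRNAs summed to 2153 to 3172 CPM in the cochlea at E16 and P0 and to 6841 to 19074 at P16, and the 2 measured oligodendrocyte miRNAs in the SOC rose from 338 to 497 CPM at E16 to 2921 to 6418 at P16. The part of these cell types in the results below was not tested, and in bulk tissue fewer cells of a type and less RNA per cell cannot be told apart.

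miR-181 made up a large part of the SOC libraries. The 7 members together held 14.6% ± 6.78 of all counts at E16 (SD, n = 4), 20.0% ± 14.1 at P0 (n = 4) and 28.9% ± 4.74 at P16 (n = 3). miR-181a-5p made up 78.2% to 95.6% of the family's counts and ranked between first and position 6 among all miRNAs in each of the 11 SOC libraries. In the cochlea the family held 0.373% ± 0.00867 at E16 (n = 2), 0.322% ± 0.0554 at P0 (n = 4) and 0.195% ± 0.0355 at P16 (n = 4), and miR-181a-5p ranked between 41 and 62. As the log2 ratio of shares, the cochlear family differed by -0.73 between P0 and P16 with no overlap between the groups (exact two-sided permutation test, p = 0.0286, the smallest that 4 against 4 can give, and 0.171 adjusted over the 6 share tests of both organs). Between E16 and P16 the difference was -0.96 (p = 0.0667 by the same exact test, the smallest that 2 against 4 can give), and on TMM-normalized CPM, a scaling for library composition, it was -0.45 (exact p = 0.133). The SOC share at P16 stood 1.10 above E16 on the log2 scale, which did not pass the exact test (p = 0.0857). In the SOC the share followed the library sets: it was 8.16% to 9.45% in the 4 set A libraries at E16 and P0, 19.0% to 25.2% in the 4 set B libraries of all ages, and 28.9% to 37.5% in the 3 set C libraries. Within set B, the P16 library held 24.2%, between the E16 libraries (21.7% and 19.0%) and the P0 library (25.2%).

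**Figure D1:**
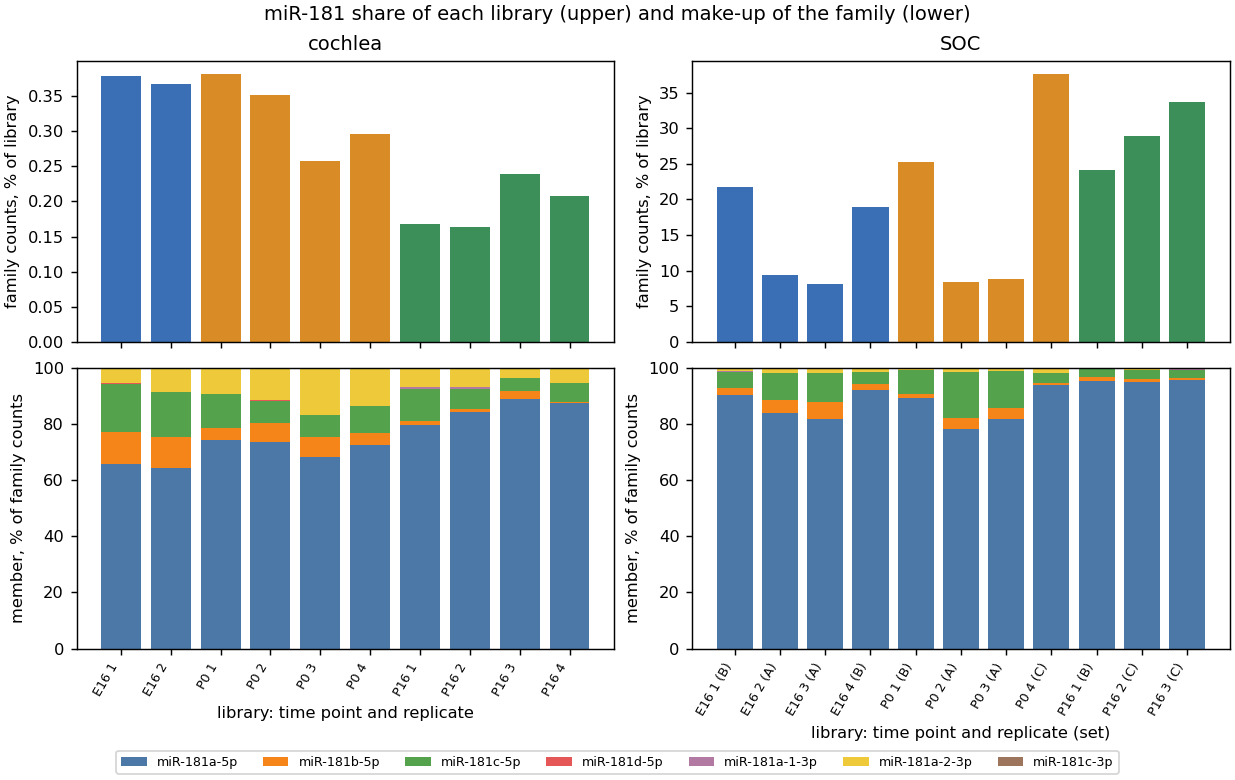
Upper panels: counts of the 7 miR-181 members as a percentage of all counts of each library, for cochlea (left) and SOC (right), coloured by time point, with separate vertical scales. Lower panels: percentage of the family's counts held by each member, where miR-181a-5p grew from 64.4% to 65.8% at E16 to 79.5% to 89.0% at P16 in the cochlea, and in the SOC the upper bars follow the sets A, B and C given in brackets.

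The members did not change together in the cochlea: miR-181b-5p and miR-181c-5p declined, while miR-181a-5p was called at no age. At P16 vs E16, 2 of the 7 members were repressed and 0 induced, against 29.6% of the 896 miRNAs tested in the cochlea that were called in either direction and 18.6% that were called lower. A call required 3 things: a false discovery rate (FDR, edgeR quasi-likelihood test with Benjamini-Hochberg adjustment over all tested miRNAs) under 0.05, a change of more than 1.5-fold, and replicates that did not overlap. The median fitted log2 fold change over the 7 members was -1.59, against -0.085 over all 896. It includes 3 members (miR-181d-5p, miR-181a-1-3p and miR-181c-3p) that had at most 3 counts in every cochlea library and give no fold change. The others changed by -3.40 (miR-181b-5p), -1.59 (miR-181c-5p), -0.73 (miR-181a-2-3p) and -0.042 (miR-181a-5p).

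miR-181b-5p showed the largest decline of the family in the cochlea. Its level after TMM normalization was 318 and 313 CPM in the libraries of E16, 166, 244, 206 and 139 CPM at P0, and 25.5, 23.4, 59.8 and 7.44 CPM at P16. The 3 groups did not overlap, and each P16 value rested on only 1 to 9 counts. It fell by 3.40 on the log2 scale from E16 to P16 (SE 0.56, FDR = 2.82e-08), a 10.6-fold decrease, and by 2.66 from P0 to P16 (SE 0.52, FDR = 7.79e-06). Its change from E16 to P0 was -0.74 (SE 0.50) and did not pass (FDR = 0.269).

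miR-181c-5p, from the pair on chromosome 8, declined less steeply. It stood at 495 and 454 CPM at E16, at 439, 283, 244 and 305 CPM at P0, and at 194, 187, 113 and 134 CPM at P16. Every later library was below both E16 libraries. It fell by 1.59 from E16 to P16 on the log2 scale (SE 0.46, FDR = 0.00290, 3.01-fold), and its change from P0 to P16 was -1.01 (SE 0.40, FDR = 0.0758). The call at P16 vs E16 was lost in a fit of all 21 libraries (FDR = 0.0602).

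miR-181a-5p, the most abundant member, was measured at 1870 and 1835 CPM at E16, at 2729, 2612, 2056 and 2322 CPM at P0, and at 1363, 2126, 2033 and 1681 CPM at P16. The E16 values lay within the range of P16. Its log2 change was 0.39 (SE 0.41, FDR = 0.495) from E16 to P0 and -0.042 (SE 0.40, FDR = 0.963) from E16 to P16. These values depend on scaling: with library totals in place of TMM the median of all tested cochlear miRNAs shifted by -0.38 at P0 vs E16 and by -0.50 at P16 vs E16, and the changes of miR-181a-5p became -0.060 and -0.55. With library totals, miR-181b-5p and miR-181c-5p changed by -3.89 and -2.11 from E16 to P16.

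miR-181a-2-3p, the 3p arm of Mir181a-2, was lower at P16 than at P0 in the cochlea. It was measured at 147 and 242 CPM at E16, at 348, 409, 501 and 432 CPM at P0, and at 117, 171, 79.7 and 104 CPM at P16. All P0 libraries exceeded all libraries of the other ages. At P16 vs P0, 2 members were repressed (miR-181a-2-3p and miR-181b-5p) and 0 induced, against 10.5% called and 6.58% called lower of all tested. miR-181a-2-3p fell by 1.84 on the log2 scale (SE 0.42, FDR = 0.000199), a call lost in a fit of all 21 libraries (FDR = 0.0723). At P0 vs E16 it stood 1.11 higher (SE 0.49, FDR = 0.0815) and 0 members were called in edgeR, with 1 of 7 at an unadjusted p under 0.05, against 24.4% and 38.1% of all tested. DESeq2 called 1 member there, miR-181a-2-3p (FDR = 0.0178), and 3 at P16 vs P0, where it added miR-181c-5p (log2 fold change -0.91, FDR = 0.0294).

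**Figure D2:**
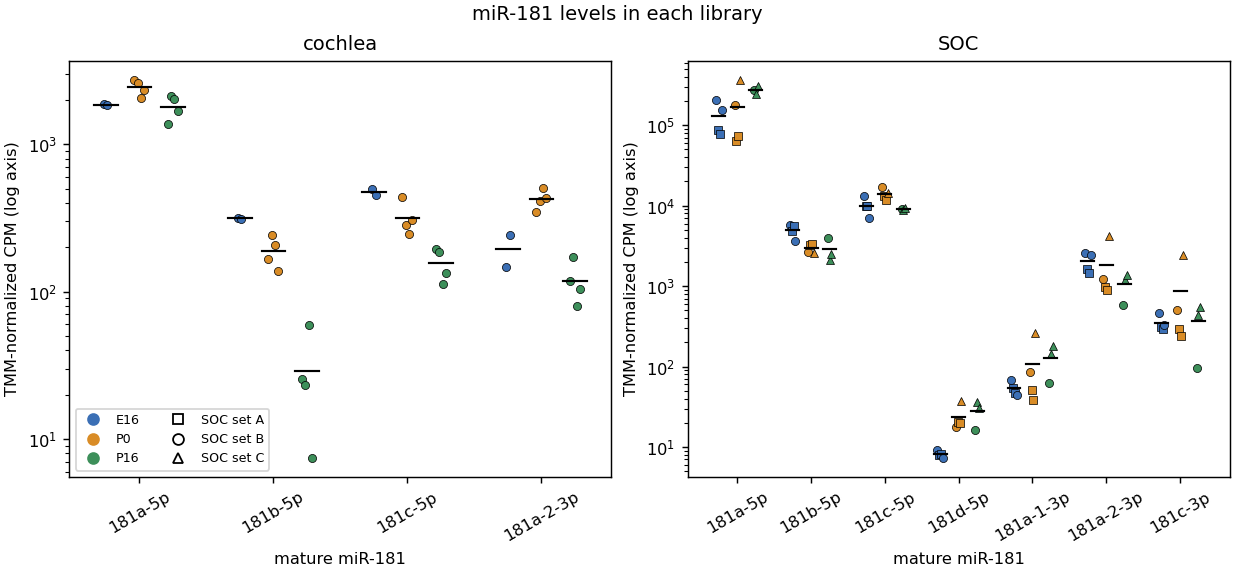
TMM-normalized CPM of miR-181 members in each library on a log axis, for cochlea (left, without the 3 members at or under 3 counts) and SOC (right). Points are libraries coloured by time point, bars are group means, and SOC symbols give sets A, B and C. In the cochlea miR-181b-5p drops to 7.44 to 59.8 CPM at P16 while miR-181a-5p stays between 1363 and 2729 CPM.

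In the SOC the only member called was miR-181d-5p, one of the least abundant. It was measured at 9.14, 7.87, 8.20 and 7.30 CPM at E16 (82 to 156 counts), at 18.0, 20.6, 19.6 and 37.3 CPM at P0, and at 16.5, 35.8 and 30.8 CPM at P16. Every postnatal library exceeded every E16 library. It differs by C12U from miR-181b-5p, which had 41712 to 97150 counts at E16, 21938 to 59274 at P0 and 19978 to 41668 at P16. The part of misassigned miR-181b-5p reads in the level of miR-181d-5p was not tested. At P0 vs E16, 1 of 7 members was induced (miR-181d-5p, log2 fold change 1.55, SE 0.38, FDR = 0.0341) and 0 repressed, against 6.63% called and 2.45% called higher of the 694 miRNAs tested in the SOC. Between E16 and P16, 1 of 7 was again induced (miR-181d-5p, 1.77, SE 0.40, FDR = 0.00481), against 41.2% called and 21.2% called higher of all tested. At P16 vs P0, 0 were called by edgeR or DESeq2, with 0 at an unadjusted p under 0.05, against 16.1% and 36.2% of all tested. The median log2 fold change of the members in these comparisons was 0.48, 0.061 and -0.058, against 0.17, 0.079 and -0.15 over all 694. With the library set as a covariate, miR-181d-5p stood 1.24 above E16 at P0 (FDR = 0.000816) and 1.05 at P16 (FDR = 0.00593). Its P0 call was narrow: it was lost without any 1 of the 4 E16 libraries (FDR = 0.0711 to 0.102) and without P0 replicate 2 (FDR = 0.0566) or 3 (FDR = 0.0576), and also without a filter on low counts (FDR = 0.0816) and in a fit of all 21 libraries (FDR = 0.147). Without P0 replicate 4, the library with the highest value, it kept a log2 fold change of 1.32 (FDR = 0.0472).

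The abundant SOC members did not pass the test. miR-181a-5p held 19.6%, 7.94%, 6.68% and 17.5% of the library at E16, 22.5%, 6.59%, 7.20% and 35.3% at P0, and 23.0%, 27.5% and 32.2% at P16. All P16 libraries lay above all E16 libraries, while P0 spanned the whole range. Its TMM-scaled log2 change was 0.37 (SE 0.57, FDR = 0.761) from E16 to P0 and 1.06 (SE 0.62, FDR = 0.179) from E16 to P16. With the set as a covariate the changes were -0.011 (FDR = 0.980) and 0.13 (FDR = 0.732), and within set B the P16 library was 1.56-fold above the 2 E16 libraries.

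miR-181b-5p was lower in the SOC after birth, without passing the test. It stood at 5695, 4875, 5574 and 3623 CPM at E16, at 2680, 3274, 3386 and 2551 CPM at P0, and at 3920, 2118 and 2532 CPM at P16. All P0 libraries lay below all E16 libraries, and P16 replicate 1 overlapped E16. The log2 change was -0.73 (SE 0.34, FDR = 0.216) at P0 vs E16 and -0.79 (SE 0.37, FDR = 0.0986) at P16 vs E16. The P0 change was called once the set was a covariate (-0.62, FDR = 0.0375).

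miR-181c-5p in the SOC was measured at 13234, 9932, 9952 and 7025 CPM at E16, at 17004, 13120, 11757 and 14181 CPM at P0, and at 9011, 8821 and 9385 CPM at P16. Every P0 library exceeded every P16 library, while E16 and P0 overlapped. Its change was 0.48 (SE 0.33, FDR = 0.426) from E16 to P0 and -0.63 (SE 0.36, FDR = 0.224) from P0 to P16, and the latter was called with the set as a covariate (-0.70, FDR = 0.0421).

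In the SOC the fitted changes of the 3p arms from E16 to P16 moved when the library set was a covariate. miR-181a-2-3p was measured at 2599, 1637, 1454 and 2455 CPM at E16, at 1215, 964, 890 and 4217 CPM at P0, and at 582, 1196 and 1365 CPM at P16. All 3 P16 values were under all 4 E16 values, and P0 replicate 4 (set C) stood above all others. Its log2 change from E16 to P16 was -0.96 (SE 0.59, FDR = 0.202), and -2.26 with the set as a covariate, which was called (FDR = 3.73e-06). In that fit the set C libraries of P16 are linked to E16 only through P0 replicate 4. For miR-181c-3p, the 3p arm of Mir181c, the E16 libraries gave 463, 307, 297 and 325 CPM, the P0 libraries 505, 290, 239 and 2438 CPM, and the P16 libraries 95.2, 443 and 551 CPM. The P16 groups overlapped E16 and its change was 0.061 (SE 0.78, FDR = 0.955), whereas a set covariate gave -2.20 (FDR = 1.56e-05, not called because the replicates overlapped). Within set B alone, the P16 library was below the mean of the E16 libraries for both arms, with log2 differences of -2.12 for miR-181a-2-3p and -2.03 for miR-181c-3p. miR-181a-1-3p ranged from 44.4 to 68.3 CPM at E16, from 37.9 to 259 at P0 and from 61.7 to 177 at P16, a change of 1.25 (SE 0.62, FDR = 0.115) at P16 vs E16 and -0.24 (FDR = 0.552) with the covariate.

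**Figure D3:**
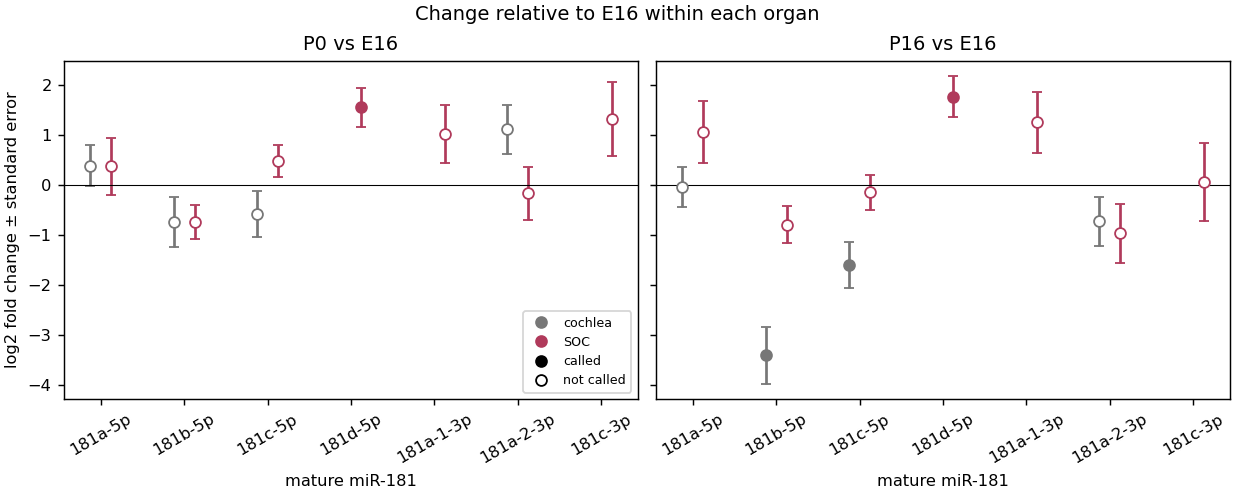
Log2 fold change with its standard error for each miR-181 member at P0 vs E16 (left) and P16 vs E16 (right), cochlea in grey and SOC in red, from the edgeR fit of each organ. Filled points passed all criteria: miR-181b-5p and miR-181c-5p fell in the cochlea by P16 and miR-181d-5p rose in the SOC at both ages. The 3 members at or under 3 counts in the cochlea are not drawn there.

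The changes themselves differed between the organs for miR-181b-5p. In one edgeR model of all 21 libraries, tested over the 545 miRNAs of both organs, the change of miR-181b-5p from E16 to P16 was 2.49 higher on the log2 scale in the SOC than in the cochlea (SE 0.66, FDR = 0.0122), and that from P0 to P16 was 2.61 higher (SE 0.62, FDR = 0.0148). These are set against medians of 0.38 and -0.11 over all 545, and the shares of all 545 with an FDR under 0.05 were 16.9% and 6.42%, beside 2 and 1 of the 7 members. At P0 vs E16, 0 members passed (11.9% of all 545). With the set as a covariate the differences were 2.72 and 2.73. For miR-181a-5p and miR-181c-5p the corresponding differences from E16 to P16 were 0.93 (SE 0.79, FDR = 0.483) and 1.27 (SE 0.60, FDR = 0.144). miR-181a-2-3p differed by -0.41 (SE 0.80, FDR = 0.780). miR-181d-5p also passed at P16 vs E16 (FDR = 0.0218), but it was at or under 3 counts in every cochlea library, so this difference rests on a group without a measurable level.

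Ratios of 2 members within a library do not depend on how libraries are scaled. In the cochlea the ratio of miR-181b-5p to miR-181a-5p was lower at each later age: 17.0% in both libraries of E16, 6.08%, 9.33% and 5.97% in P0 replicates 1, 2 and 4 (with 32 against 320 counts in replicate 3), and 1.87%, 1.10%, 2.94% and 0.442% at P16. No group overlapped another. The log2 differences were -1.14 (P0 vs E16), -2.34 (P16 vs P0) and -3.49 (P16 vs E16), with exact two-sided permutation p = 0.0667, 0.0286 and 0.0667, each the smallest possible. The ratio of miR-181c-5p to miR-181a-5p was 26.5% and 24.7% at E16, 10.8% to 16.1% at P0 and 5.56% to 14.2% at P16, with both later groups below E16 (log2 differences of -0.99 and -1.54, exact p = 0.0667 each). P0 and P16 overlapped. After adjustment over the 9 ratio tests in the cochlea the smallest p was 0.1, and with these group sizes no outcome could have brought it below 0.0667.

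The 3p arm of Mir181a-2 relative to miR-181a-5p, which comes from both precursors, differed between ages in both organs, though not after adjustment. The ratio of miR-181a-2-3p to miR-181a-5p in the cochlea was 7.85% and 13.2% at E16, 12.7%, 15.7%, 24.4% and 18.6% at P0, and 8.61%, 8.06%, 3.92% and 6.19% at P16. P16 lay wholly below P0 (log2 difference -1.40, exact permutation p = 0.0286, adjusted p = 0.1). In the SOC it was 1.25%, 1.85%, 1.86% and 1.60% at E16, 0.672%, 1.51%, 1.22% and 1.15% at P0, and 0.210%, 0.494% and 0.445% at P16. P16 lay wholly below both earlier ages (log2 difference -2.18 vs E16, exact permutation p = 0.0286, adjusted p = 0.0857 over 21 tests). In set B the P16 library was also below the E16 libraries (log2 difference -2.76). For miR-181a-1-3p to miR-181a-5p the SOC means were 0.0459%, 0.0625% and 0.0466% at E16, P0 and P16. Its log2 difference at P16 vs E16 was -0.030 (exact permutation p = 0.886), and -0.48 within set B.

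Between the precursors of miR-181a, the 3p arm of Mir181a-1 stood higher relative to that of Mir181a-2 at each later age in the SOC. The ratio of miR-181a-1-3p to miR-181a-2-3p was 2.63%, 3.33%, 3.22% and 1.81% at E16, 7.02%, 5.30%, 4.26% and 6.13% at P0, and 10.6%, 12.1% and 13.0% at P16. No group overlapped another. The means were 2.75% ± 0.699 (SD, n = 4), 5.68% ± 1.18 (n = 4) and 11.9% ± 1.21 (n = 3), with log2 differences of 1.06 (P0 vs E16), 1.08 (P16 vs P0) and 2.15 (P16 vs E16). Each had an exact permutation p = 0.0286 and an adjusted p = 0.0857, so none passed the adjustment. The direction was the same within each set that allowed a comparison, with log2 differences of 0.54 in set A (P0 vs E16), 1.69 (P0 vs E16), 0.59 (P16 vs P0) and 2.28 (P16 vs E16) in set B and 1.03 in set C (P16 vs P0). In the cochlea miR-181a-1-3p had 0 to 3 counts per library, too few for this ratio.

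For the pair on chromosome 8, the ratio of miR-181d-5p to miR-181c-5p in the SOC went from 0.0836% ± 0.0146 at E16 (SD, n = 4) to 0.173% ± 0.0658 at P0 (n = 4) and 0.306% ± 0.113 at P16 (n = 3). Both later ages lay wholly above E16 (log2 differences of 0.98 and 1.81, exact permutation p = 0.0286 each, adjusted p = 0.0857), and within set B the differences were 0.31 and 1.11. Over all sets, the ratio of miR-181c-3p to miR-181c-5p did not differ beyond its spread, at 3.55% ± 0.752, 6.10% ± 7.40 and 3.98% ± 2.57 (log2 difference of -0.15 at P16 vs E16, exact permutation p = 0.943). Within sets it was lower at the later age. The log2 differences at P0 vs E16 were -0.52 in set A and -0.44 in set B. Set B gave -1.93 (P16 vs E16) and -1.49 (P16 vs P0), and set C -1.66 (P16 vs P0). Set B has a single library at P0 and at P16, and set C a single one at P0.

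The ratios of miR-181b-5p and miR-181c-5p to miR-181a-5p were also lower at P16 in the SOC. miR-181b-5p to miR-181a-5p was 2.37% to 7.13% at E16 and 0.826% to 1.41% at P16 (log2 difference -1.99, exact permutation p = 0.0286), and miR-181c-5p to miR-181a-5p was 4.59% to 12.7% and 3.06% to 3.65% (-1.28, exact permutation p = 0.0571). Within set B the log2 differences were smaller, at -0.85 for miR-181b-5p and -0.74 for miR-181c-5p. At P0 both spanned a wide range that followed the sets, from 0.698% in set C to 5.14% in set A for miR-181b-5p. In total 6 of 9 cochlear and 10 of 21 SOC ratio comparisons had groups that did not overlap, and 0 passed after adjustment. These comparisons share members and libraries, and the same count was not made for other pairs of miRNAs. Whether it is high for this family is therefore not known.

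**Figure D4:**
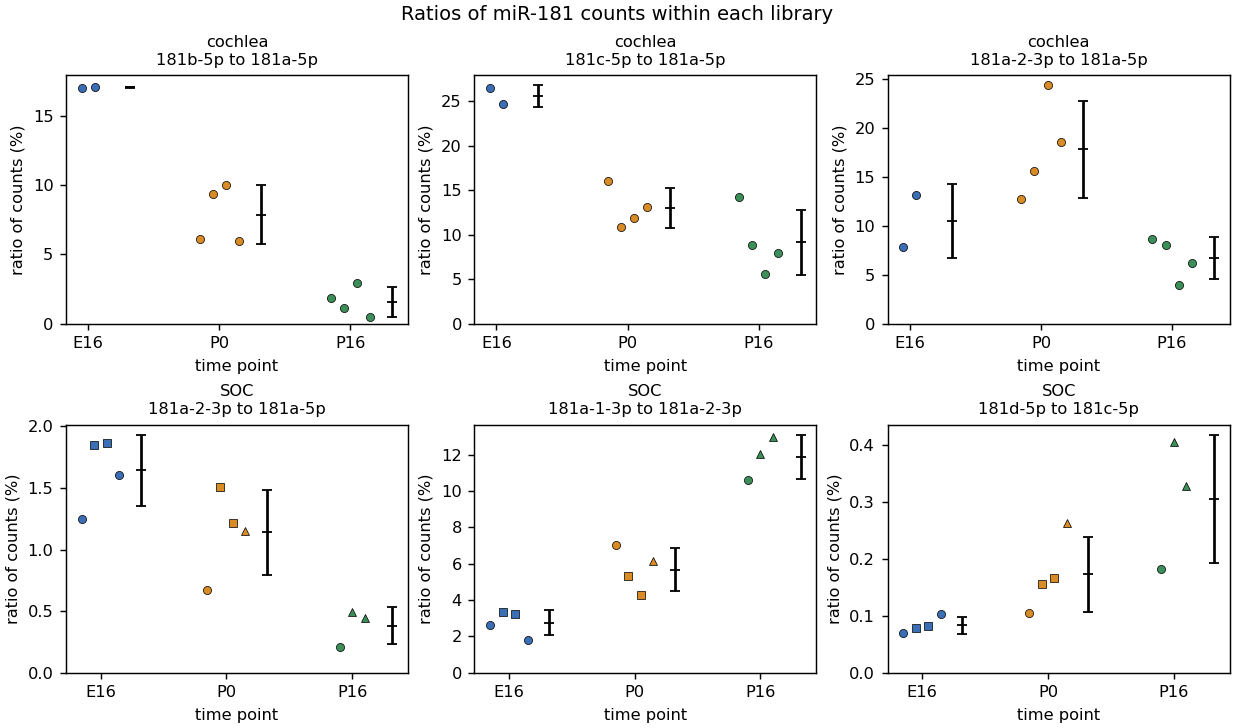
Ratios of counts within each library, in percent, at E16, P0 and P16, for 3 pairs in the cochlea (upper) and 3 in the SOC (lower, symbols for sets as squares A, circles B, triangles C). Points are libraries, and the bar beside each group is the mean ± SD. The ratio of miR-181b-5p to miR-181a-5p in the cochlea and of miR-181a-1-3p to miR-181a-2-3p in the SOC separate all 3 ages.

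To place the course of each member among other miRNAs, the profiles over the libraries of an organ were centred on log2 TMM-normalized CPM, and their root mean square difference was taken. In the cochlea (10 libraries, 297 miRNAs compared) the profiles nearest to miR-181a-5p were miR-361-3p (0.245), miR-331-3p (0.273) and miR-744-5p (0.304), and miR-181b-5p came only at position 220 (1.37). The nearest to miR-181b-5p were miR-370-3p (0.325), miR-6540-5p (0.473) and miR-409-3p (0.511). In the SOC (11 libraries, 213 compared) the nearest to miR-181a-5p were miR-484 (0.489), miR-369-5p (0.514) and let-7d-5p (0.525), followed by miR-181a-1-3p at position 4 (0.550), with miR-181b-5p at 107. For miR-181b-5p in the SOC, the nearest were miR-409-3p (0.283), miR-708-5p (0.341) and miR-345-5p (0.356). These differences share libraries, depth and the SOC sets, and are given as a description.

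As a wider group, 9 neuronal miRNAs were followed in the same fits. In the SOC 0 of 9 were called at P0 vs E16 (6.63% of all tested were called), 2 were induced and 2 repressed at P16 vs E16 (41.2%), and 1 was induced and 1 repressed at P16 vs P0 (16.1%). In the cochlea 1 was induced and 6 were repressed at P0 vs E16 (24.4% of all tested were called), among them miR-124-3p (log2 fold change -3.03, SE 0.44, FDR = 2.29e-10), which marks neurons, and 2 were induced and 5 repressed at P16 vs E16 (29.6%). At P16 vs P0, where miR-181b-5p fell in the cochlea, 2 neuronal miRNAs were induced there and 0 repressed (10.5%), among them miR-124-3p (log2 fold change 1.94, SE 0.39, FDR = 1.32e-05). The decline of miR-181b-5p and miR-181c-5p in the cochlea is set beside these values, and the part of neurons in it was not tested.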

How the data were processed

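The authors deposited raw counts, whole numbers of reads assigned to 1647 mature miRNAs (miRBase names) in 21 miRNA-seq libraries. Per the paper's methods they aligned reads with Bowtie to mouse miRNAs of MirGeneDB, and the submitters' processing notes name Bowtie2 2.2.5, DESeq2 and mm10. The mismatches allowed are not given in the sources used here. Groups came from the labels, and all columns were matched by title. The members and lists were chosen with earlier results of these data known. The named miRNAs were the 7 members, the other miR-181 rows, the 3 nearest profiles of miR-181a-5p and of miR-181b-5p in each organ, among those averaging 100 CPM or more at some time point, miR-99b-5p and miR-191-5p, and marker lists as counts with up to 2 examples. The muscle, epithelial and other marker lists served as background values.

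miRNAs that exceeded 1 CPM in 2 or more replicates of any one age were tested per organ with edgeR 4.0.16 (R 4.3.3; TMM, quasi-likelihood F test, Benjamini-Hochberg over all tested). One model per organ held its 3 time points, and an organ by time term was tested in all libraries. The fit was also run on simulated counts that held no library sets, so that run does not bear on the sets. DESeq2 1.42.0 was an alternative, beside other scalings, filters, a replicate block, the SOC set as a covariate and each library left out. Shares and ratios (0.5 counts added) were tested by exact two-sided permutation of libraries. A group whose libraries all had 3 counts or fewer was taken as at the floor, which covers counting error only. At cochlear depth 1 count is above 1 CPM, so the members at the floor also passed the filter. Deviations of same-numbered libraries from their group means correlated over 0.1 in 4 of 4 pairs between E16 and P0 in the SOC (0.251 to 0.490). Replicate 1 was set B and replicates 2 and 3 set A at both ages, while replicate 4 (0.258) changed set. Of 12 differently numbered pairs, 2 also exceeded 0.1 (0.255 and 0.409), both within set A. For replicates 1 to 3, pairing thus cannot be told apart from library set, and the main fits treated libraries as unpaired. Same-numbered libraries did not correlate so in the other combinations (0 to 1 pair each). Mature sequences came from RefSeq and gene overlaps from GENCODE vM21.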

Additional observations from a re-analysis of the deposited data

Results flagged for a closer look

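Chance would flag about 1 in 20 independent groups, but the groups here share libraries and counts, so this rate is no benchmark for them. In 46 groups of 4 libraries tested for a value far from the rest, 5 stood apart. Of these, 4 were in replicate 4 of the SOC at P0, the only set C library of that age: miR-181a-2-3p at 4217 CPM (the others 890 to 1215), miR-181c-3p at 2438 CPM (239 to 505), miR-181d-5p at 37.3 CPM (18.0 to 20.6) and the ratio of miR-181c-3p to miR-181c-5p at 17.2% (2.03% to 2.97%). The other, which only just passed the cutoff, was miR-181c-3p at 463 CPM in replicate 1 of the SOC at E16 (297 to 325). At E16, replicate 4 is of the same set B as replicate 1 and gave 325 CPM. For the flags at P0, the library set cannot be told apart from this single library, and its part was not tested.

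The change over time differed between the organs, by the organ by time term of edgeR with Benjamini-Hochberg adjustment, for miR-181b-5p at P16 vs E16 (2.49 higher in the SOC on the log2 scale) and at P16 vs P0 (2.61), and for miR-181d-5p at P16 vs E16 (7.93). The last value is no measure of size, since miR-181d-5p had at most 3 counts in every cochlea library.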

How the results depend on the processing

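The cochlear decline of miR-181b-5p at P16 vs E16 and P16 vs P0 and the SOC rise of miR-181d-5p at P16 vs E16 were called in every fit that tested them. A filter of at least 10 counts in every library removed miR-181b-5p from the cochlea. In the cochlea the number of members called became 1 at P0 vs E16 with DESeq2 and with that filter, 1 at P16 vs E16 with that filter, with all 21 libraries in one fit and with the replicate block (miR-181c-5p -1.38, FDR = 0.0506), and 1 at P16 vs P0 with all libraries in one fit. It became 3 at P16 vs E16 with library totals (miR-181a-2-3p -1.26, FDR = 0.0416, was added) and 3 at P16 vs P0 with DESeq2. In the SOC it became 0 at P0 vs E16 without a filter and with all libraries in one fit. With the set as a covariate it became 2 (P0 vs E16), 1 (P16 vs P0) and 2 (P16 vs E16), and with the replicate block 2 at P16 vs E16, where miR-181a-5p (FDR = 0.0295) was added. The block grouped same-numbered libraries of all ages. Between E16 and P16 in the SOC, 0 of 3 such pairs correlated over 0.1, and replicates 2 and 3 went from set A to set C. The block changed no other call. The cause was not tested.

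The cochlear family share at P0 vs E16 turned from -0.23 to 0.23 with TMM. Without miR-181a-5p the SOC share turned to -0.29 at P16 vs E16 and -0.62 at P16 vs P0. Members with a different change between organs became 2 (library totals) and 1 (set) at P0 vs E16 and 4 (set) at P16 vs E16. Uncalled changes also turned: miR-181a-5p in the cochlea to -0.060 at P0 vs E16 (library totals) and to 0.018 (DESeq2), 0.019 (RLE size factors) and 0.040 (all libraries in one fit) at P16 vs E16, and in the SOC to -0.011 at P0 vs E16 (set). At P16 vs E16 in the SOC, miR-181a-1-3p turned to -0.24 (set) and miR-181c-3p to -0.011 (no filter) and -2.20 (set). The difference between organs at P16 vs E16 turned to 0.39 for miR-181a-2-3p (library totals) and -0.074 for miR-181a-5p (set).

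With each library left out in turn, the members called were 0 to 1, 2 to 2 and 2 to 3 in the cochlea (at P0, at P16 and between them) and 0 to 1, 1 to 3 and 0 to 0 in the SOC. The 3 at P16 vs E16 came without SOC P16 replicate 1. The 1 at P0 vs E16 in the cochlea came without P16 replicate 1 or 2. The family share ranged from -0.32 to -0.13, -1.06 to -0.88 and -0.83 to -0.64 in the cochlea and from -0.12 (without P0 replicate 4) to 0.60, 0.86 to 1.33 and 0.50 to 1.22 in the SOC. Members differing between organs numbered 0 to 1, 2 to 2 and 1 to 2. Uncalled changes ranged across 0 for miR-181a-5p, from -0.13 to 0.071 in the cochlea (P16 vs E16) and -0.25 to 0.65 in the SOC (P0 vs E16), for miR-181c-3p in the SOC (-0.31 to 0.51, P16 vs E16), for the difference between organs of miR-181a-2-3p (-0.66 to 0.091, P16 vs E16) and for the ratio of miR-181c-3p to miR-181c-5p (-0.60 to 0.64, P16 vs E16). At cochlear depth, members under 4 counts allow no fold change.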

Other observations

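The 3 other rows named miR-181 are 3p arms at low counts. In the cochlea miR-181b-1-3p had 16 and 39 counts at E16, 0 in the 4 libraries of P0 and 0 to 3 at P16, and miR-181b-2-3p had 12 and 18 counts at E16 and 0 to 1 later. Against 3 counts per library, miR-181b-1-3p was at least 3.34-fold lower at P0 and at least 2.75-fold lower at P16 than at E16 (edgeR, FDR = 9.25e-05 and 0.00720). miR-181d-3p was measured at 59.8 and 66.0 CPM at E16 and 37.5 to 107 CPM at P0 and was at least 3.59-fold lower at P16 than at P0 (FDR = 5.33e-05). In the SOC miR-181b-1-3p stood at 0 to 0.782 CPM at E16 and 1.88 to 11.0 CPM at P16 (log2 fold change 4.41, SE 1.13, FDR = 0.00856), while the change of miR-181b-5p there was -0.79 and did not pass the test. miR-181b-1-3p had 0 to 9 counts per library at E16. At P16 it had 20 counts in the set B library and 41 and 115 in the set C libraries. Between E16 and P16 miR-181d-3p fell by 2.32 on the log2 scale in the SOC (SE 0.71, FDR = 0.0196), from 19 to 45 counts per library to 3 to 7.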
